A study of Mus musculus with 24 samples.

Results

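Ccl17 and Ccl22, the chemokine ligands of the receptor Ccr4, were described together with Ccr4 in the lungs of mice that breathed O3 with or without the receptors for tumor necrosis factor. The members were the probe sets that the annotation of the array gives to these genes alone. Each gene had 1 such probe set, so that 3 of the 20537 probe sets and 3 of the 11597 genes tested were members. All 3 passed the filter on low signals. The genes had been chosen from earlier results of the same arrays, in which O3 was set against air in Tnfr+/+ lungs and the genotypes were set against each other. The values of those comparisons are therefore given as a description without a test, and tests are given for these genes only within the Tnfr-/- lungs, although the Tnfr-/- arrays also entered the genotype comparisons.

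Lung RNA was hybridized to Affymetrix MOE430A arrays, 1 male mouse of 6 to 8 weeks to an array, 24 arrays in all. Tnfr+/+ mice were C57BL/6J, and Tnfr-/- mice lacked both Tnfrsf1a and Tnfrsf1b (B6.129S-Tnfrsf1a tm1Imx Tnfrsf1b tm1Imx/J) in all cells of the body, which limits the mice as a model of any 1 lung cell type. The wild type was a purchased strain and not made of littermates. Each genotype had 4 groups of 3 mice. Of these, 1 group breathed filtered air in a parallel chamber. The others breathed 0.3 ppm O3 without a break for 24, 48 or 72 h. The labels give no time for the air groups, so no O3 time has an air control known to match it in time. The 3 air arrays of a genotype served as the control of all of its O3 groups, so these comparisons share arrays. Signals below are intensities after quantile normalization, which have no absolute unit. The signal of 1 probe set cannot be set against that of another.

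Ccl17 (also called TARC) and Ccl22 (also called MDC) are small secreted CC chemokines that dendritic cells and macrophages release, and epithelial cells can release Ccl17 as well. Both bind Ccr4, a G protein-coupled receptor carried by T helper type 2 cells, regulatory T cells and other memory T cells, and draw those cells into tissue. Interleukin 4 and interleukin 13, acting through the transcription factor STAT6, are known inducers of both ligands, and NF-kB is known to act on them too.

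The ligand genes lie near each other on chromosome 8 and the receptor gene on chromosome 9. In RefSeq on GRCm38.p6, Ccl22 spans chr8:94745684-94751388 and Ccl17 chr8:94809380-94812038, both on the plus strand, with 57.992 kb between the end of the former and the start of the latter. Cx3cl1, the gene of a chemokine that binds another receptor, lies between them at chr8:94772180-94782427. Ccr4 spans chr9:114490316-114505476. The 250 bases before the start of each ligand gene are printed here because both are known STAT6 and NF-kB targets whose signals were followed side by side. They were taken from RefSeq (GRCm38.p6) as chr8:94810203-94810452 for Ccl17 and chr8:94745434-94745683 for Ccl22, both on the plus strand and written 5′ to 3′. Capitals mark each match to 1 of 4 searched patterns.

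Ccl17: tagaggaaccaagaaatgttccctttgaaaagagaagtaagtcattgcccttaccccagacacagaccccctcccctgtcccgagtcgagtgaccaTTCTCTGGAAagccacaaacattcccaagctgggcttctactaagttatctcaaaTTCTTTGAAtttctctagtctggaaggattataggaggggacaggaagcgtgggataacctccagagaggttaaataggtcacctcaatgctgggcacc
Ccl22: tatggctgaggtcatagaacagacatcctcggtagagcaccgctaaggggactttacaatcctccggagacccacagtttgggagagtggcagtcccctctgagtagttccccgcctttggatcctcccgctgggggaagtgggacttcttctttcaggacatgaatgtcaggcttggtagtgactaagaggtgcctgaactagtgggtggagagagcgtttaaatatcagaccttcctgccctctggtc

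The patterns were searched on both strands. They were a STAT6 pattern (TTC and GAA with 4 bases between them), a shorter STAT pattern TTCNNNGAA, an AP-1 pattern TGANTCA, and the NF-kB consensus. The Ccl17 window held 1 STAT6 match (TTCTCTGGAA, from 154 to 145 bases before the start) and 1 STAT match (TTCTTTGAA, from 99 to 91 bases before it). The Ccl22 window held no exact match to any of the 4. Looser NF-kB patterns were not searched, and nothing about NF-kB is read from this. Of 32851 promoter windows of the same length from 27025 genes, 5.85% held the STAT6 pattern, 7.02% the STAT pattern, 6.75% the AP-1 pattern and 7.25% the NF-kB consensus. The Ccr4 window (chr9:114496545-114496794, minus strand) held 1 AP-1 match, TGAGTCA, from 143 to 137 bases before the start. The start in the promoter table lies 1073 bases inside the outermost annotated start of Ccl17, and that of Ccr4 8932 bases inside, so that the windows of these genes belong to inner starts. A match is a run of letters and not a measured binding site.

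Ccl17 was the only member whose O3 and air arrays were apart at every time in both genotypes. In Tnfr+/+ lungs its signals were 352, 378 and 377 on the air arrays, which makes 369 ± 14.3 (SD, n = 3). After 24 h of O3 they were 813, 1036 and 675, or 841 ± 182 (SD, n = 3). Every 24 h array was above every air array. After 48 h the signals were 998, 1080 and 1152, or 1077 ± 77.3 (SD, n = 3), and after 72 h they were 1266, 913 and 1390, or 1190 ± 247 (SD, n = 3). At both later times, too, no O3 array reached down to the air arrays. On the log2 scale the O3 groups were above air by 1.17, 1.54 and 1.67 (2.25-, 2.91- and 3.18-fold). The groups that these values compare chose the gene, so they carry no test. Of all 20537 probe sets, 11.9%, 16.7% and 19.7% had groups that did not overlap at 24, 48 and 72 h, and 0.0828%, 1.17% and 3.10% passed an adjusted p under 0.05 (limma, Benjamini-Hochberg over all probe sets).

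In Tnfr-/- lungs, the only ones in which Ccl17 was tested, it rose at all 3 times. These tests are not free of the choice of the gene. Their shared air arrays also entered the genotype comparison in air, in which Ccl17 was low in Tnfr-/- lungs. The differences from air may therefore be too large and their p values too small. The air arrays gave 226, 270 and 301, or 265 ± 37.96 (SD, n = 3), and the 24 h arrays 899, 552 and 792, or 748 ± 178 (SD, n = 3). All 24 h arrays were above all air arrays. The log2 difference was 1.47 with a 95% confidence interval from 1.07 to 1.88 (2.78-fold, limma, adjusted p = 0.00042). At 48 h the signals were 1097, 896 and 1193, or 1062 ± 151 (SD, n = 3), again without overlap with air. The log2 difference there was 2.00 with an interval from 1.59 to 2.41 (4.00-fold, limma, adjusted p = 8.1e-06). At 72 h they were 776, 684 and 694, or 718 ± 50.3 (SD, n = 3), above every air array and below every 48 h array. This difference from air was 1.44 with an interval from 1.04 to 1.85 (2.72-fold, limma, adjusted p = 0.00018). In these comparisons 1.10%, 3.83% and 3.96% of the probe sets passed the test at 24, 48 and 72 h, and 21.9%, 31.6% and 26.1% had groups that did not overlap. Of 15 tests of the members within the Tnfr-/- lungs, these 3 passed. Leaving out any 1 array moved the 3 differences to between 1.33 and 1.68, between 1.89 and 2.12 and between 1.33 and 1.54, and the highest adjusted p was 0.0054 at 24 h. At 24 h the call was lost in a fit to the 6 arrays of the comparison alone, with the same difference and an adjusted p of 0.094.

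Within the Tnfr-/- O3 groups Ccl17 had its highest mean at 48 h. The 48 h signals were above those of 24 h by 0.53 on the log2 scale (interval from 0.12 to 0.93, limma, adjusted p = 0.39), and the groups overlapped. The 72 h signals were below those of 48 h by 0.56 (interval of the difference from -0.96 to -0.15, limma, adjusted p = 0.84), and the groups did not overlap. Neither step passed the test, whose unadjusted p was 0.014 for the first and 0.010 for the second. Over all probe sets 0.380% passed between 24 and 48 h and 19.3% had groups without overlap, against 0.00487% and 13.3% between 48 and 72 h. In Tnfr+/+ lungs the same steps were 0.38 and 0.12 on the log2 scale. Whether the steps differed between the genotypes was not tested, because the genotypes took part in the choice of the gene.

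Between the genotypes Ccl17 was lower in Tnfr-/- lungs in air, with a log2 difference of -0.48 (265 against 369) and no overlap. At 24 and 48 h the genotypes overlapped, with differences of -0.18 and -0.03. At 72 h every Tnfr-/- array was below every Tnfr+/+ array, with a difference of -0.71 (718 against 1190). Over all probe sets 15.4%, 23.1%, 19.0% and 13.0% did not overlap between the genotypes in air and at 24, 48 and 72 h, and 0.0876%, 1.00%, 0.166% and 0.161% passed the test. Without any 1 array the difference lay between -0.58 and -0.37 in air and between -0.89 and -0.58 at 72 h. The Tnfr+/+ 72 h replicate 1 stands apart from the other arrays, and without it the 72 h difference was -0.65.

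**Figure D1:**
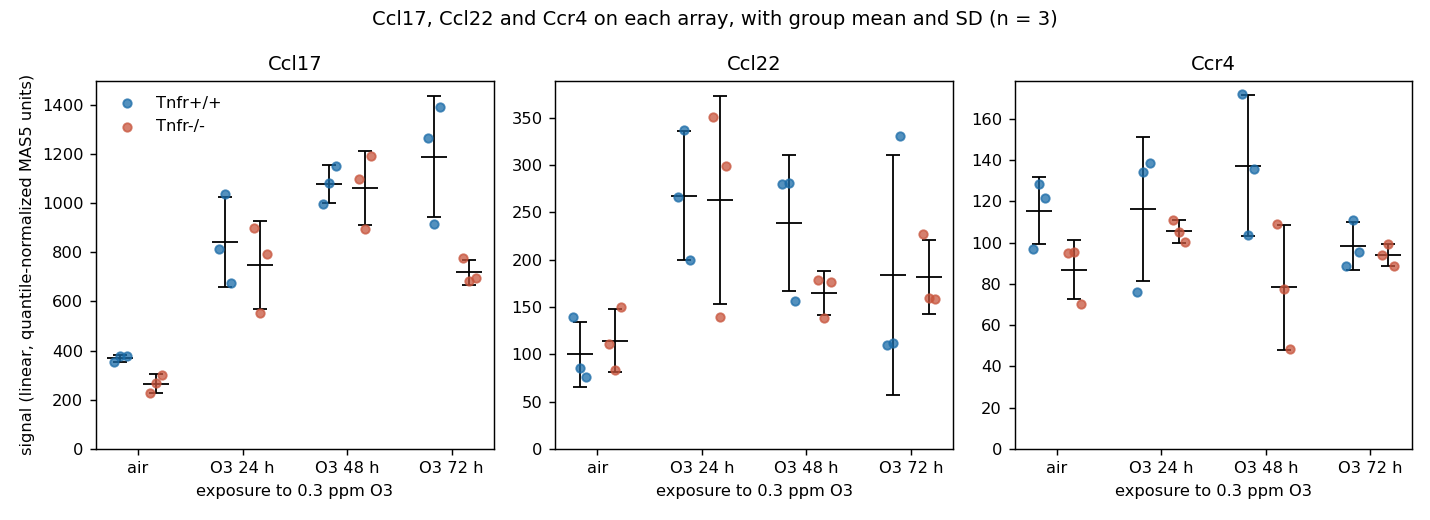
Signal (quantile-normalized intensity on a linear scale) of Ccl17, Ccl22 and Ccr4 on each of the 24 arrays, by genotype and by air or hours of O3. Points are arrays, and bars are group means with SD (n = 3). In Ccl17 all O3 arrays of a genotype sit above its air arrays, in Ccl22 the air and O3 arrays overlap in part, and in Ccr4 no O3 group passed the test against air.

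Ccl22 was higher after O3 in the means of both genotypes, with a wide spread between mice. In Tnfr+/+ lungs the signals were 139, 85.3 and 75.5 in air, or 99.96 ± 34.2 (SD, n = 3), and 267, 337 and 200 at 24 h, or 268 ± 68.4 (SD, n = 3). No 24 h array reached down to the air arrays. The 48 h arrays gave 280, 281 and 156, or 239 ± 72.1 (SD, n = 3), and the 72 h arrays 110, 112 and 331, or 184 ± 127 (SD, n = 3). The 48 h arrays stayed above air, whereas at 72 h replicates 1 and 2 lay within the air range and replicate 3 was far above it. The log2 differences from air were 1.44, 1.26 and 0.73 (2.72-, 2.39- and 1.66-fold), again without a test, and of all probe sets 11.9% and 16.7% did not overlap at 24 and 48 h. The 72 h value rested on 1 array: it was 0.20 without replicate 3 and 0.99 without replicate 1, the array that stands apart.

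In Tnfr-/- lungs none of the Ccl22 differences passed the test. The signals were 110, 83.6 and 150 in air, or 115 ± 33.2 (SD, n = 3), and 351, 139 and 299 at 24 h, or 263 ± 110 (SD, n = 3). At 24 h replicate 2 lay within the air range, and the other two lay above it. The difference was 1.13 on the log2 scale with an interval from 0.27 to 2.00 (limma, unadjusted p = 0.013, adjusted p = 0.23). It was 0.87 without 24 h replicate 1 and 1.54 without replicate 2. At 48 h the arrays gave 179, 138 and 177, or 165 ± 23.05 (SD, n = 3), and overlapped with air, with a difference of 0.55 (interval from -0.31 to 1.41, limma, adjusted p = 0.52). At 72 h they gave 227, 160 and 158, or 182 ± 39.3 (SD, n = 3), and did not overlap with air (as 26.1% of all probe sets), with a difference of 0.68 (interval from -0.18 to 1.55, limma, adjusted p = 0.43). The steps from 24 to 48 h and from 48 to 72 h were -0.58 and 0.13 (limma, adjusted p = 0.76 and 1.0). The intervals of the 48 and 72 h differences hold 0 and also hold changes of more than 1 on the log2 scale, so that a doubling was not separable from no change at this spread.

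Ccl22 overlapped between the genotypes in all 4 conditions. The log2 differences of Tnfr-/- from Tnfr+/+ were 0.21 in air, -0.10 at 24 h, -0.50 at 48 h and 0.16 at 72 h. The last was -0.10 without Tnfr+/+ 72 h replicate 1 and 0.69 without replicate 3.

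Ccr4, the receptor, had no difference that passed the test. Its Tnfr-/- signals were 94.99, 95.5 and 70.3 in air, or 87.0 ± 14.4 (SD, n = 3), and 111, 105 and 100.3 at 24 h, or 105 ± 5.47 (SD, n = 3). The 24 h arrays lay just above the air arrays without overlap, and 21.9% of all probe sets did not overlap in this comparison. They were 109, 77.4 and 48.6 at 48 h, or 78.4 ± 30.4 (SD, n = 3), and 94.1, 99.5 and 88.6 at 72 h, or 94.1 ± 5.46 (SD, n = 3), both overlapping with air. Against air the log2 differences were 0.29 (interval from -0.26 to 0.84, limma, adjusted p = 0.72), -0.21 (from -0.76 to 0.34, adjusted p = 0.73) and 0.13 (from -0.42 to 0.67, adjusted p = 0.87). The steps between the O3 times were -0.50 and 0.34 (limma, adjusted p = 0.61 and 1.0). Its lowest array, 48 h replicate 3, was the only 1 of the 24 on which Ccr4 lay under the 20th percentile of the array, and without it the 48 h difference was 0.09.

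In Tnfr+/+ lungs Ccr4 gave 97.0, 128 and 121 in air, or 116 ± 16.4 (SD, n = 3), and 76.1, 134 and 139 at 24 h, or 116 ± 35.0 (SD, n = 3). The 48 h arrays gave 172, 104 and 136, or 137 ± 34.2 (SD, n = 3), and the 72 h arrays 88.6, 111 and 95.5, or 98.4 ± 11.6 (SD, n = 3). All of these groups overlapped with air, with log2 differences of -0.03, 0.23 and -0.23. Between the genotypes the air arrays did not overlap, with Tnfr-/- lower by a difference of -0.41 (between -0.54 and -0.27 without any 1 array), where 15.4% of all probe sets did not overlap. The 24, 48 and 72 h differences of -0.09, -0.85 and -0.06 came from groups that overlapped. In whole lung RNA fewer cells of a type and less RNA per cell cannot be told apart, and this holds for a receptor of T cells as for ligands of dendritic cells and macrophages.

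The groups were ordered by the mean of their log2 signals, which need not follow the order of the mean signals given above. Ccl17 was highest in Tnfr+/+ 72 h, followed by Tnfr+/+ 48 h, Tnfr-/- 48 h, Tnfr+/+ 24 h, Tnfr-/- 24 h, Tnfr-/- 72 h, Tnfr+/+ air and Tnfr-/- air. Neighbours in this order overlapped except for the step of 0.96 on the log2 scale from Tnfr-/- 72 h down to Tnfr+/+ air and the step of 0.48 from Tnfr+/+ air down to Tnfr-/- air. For Ccl22 the order was Tnfr+/+ 24 h, Tnfr-/- 24 h, Tnfr+/+ 48 h, Tnfr-/- 72 h, Tnfr-/- 48 h, Tnfr+/+ 72 h, Tnfr-/- air and Tnfr+/+ air, and every pair of neighbours overlapped. The 24 h groups thus stood at the top for Ccl22 and in the middle for Ccl17. For Ccr4 the order was Tnfr+/+ 48 h, Tnfr+/+ air, Tnfr+/+ 24 h, Tnfr-/- 24 h, Tnfr+/+ 72 h, Tnfr-/- 72 h, Tnfr-/- air and Tnfr-/- 48 h, with overlap at every step. In none of the 3 orders did the 4 Tnfr+/+ groups all stand above the 4 Tnfr-/- groups. At the same exposure, the Tnfr-/- mean was the lower one every time for Ccl17 and for Ccr4, and for Ccl22 only at 24 and 48 h. The genotypes overlapped at 24 and 48 h for all 3 genes, and these directions were not tested.

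The ligands varied together over the arrays. Across the 24 arrays Ccl17 and Ccl22 had a Pearson r of 0.61 and a Spearman rho of 0.50 in log2 signal. After the group means were subtracted, r was 0.61 as well, so mice of 1 group that were high in Ccl17 tended to be high in Ccl22. Within the 12 Tnfr+/+ arrays r was 0.61 and within the 12 Tnfr-/- arrays 0.65. Without the 2 arrays farthest from the Ccl17 median (Tnfr-/- air replicates 1 and 2) it was 0.52. Ccl17 and Ccr4 had an r of 0.03, and Ccl22 and Ccr4 an r of 0.09. The points share group means, and the signals of an array share 1 RNA preparation and 1 scaling, so these values are a description.

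**Figure D2:**
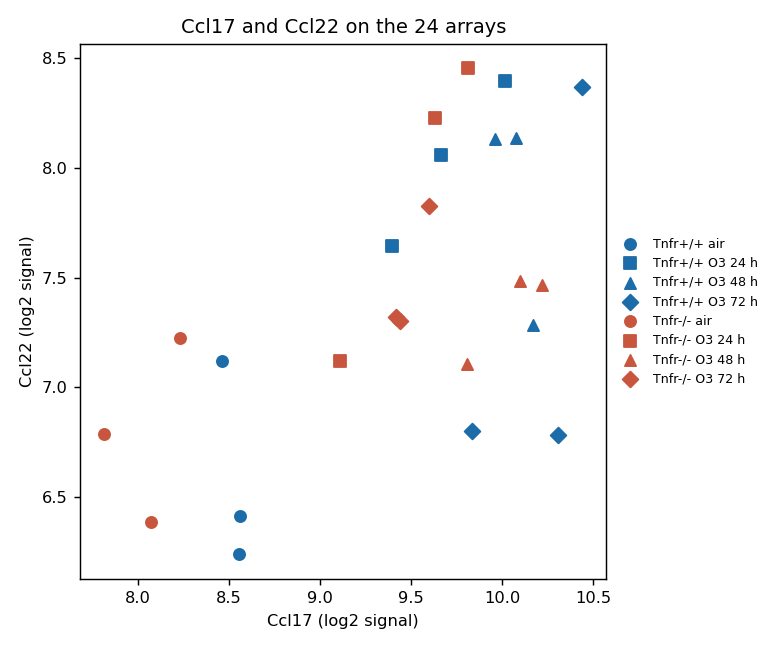
Log2 signal of Ccl22 against log2 signal of Ccl17, 1 point for each of the 24 arrays, marked by genotype and exposure. The air arrays sit at the low end of the Ccl17 axis, and on the Ccl22 axis they overlap with some O3 arrays. Over all arrays the Pearson r was 0.61.

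Among 7253 other genes with a group mean at or above the median signal, those whose log2 signal was most like that of Ccl17 over the 24 arrays were Retnla (r = 0.92), Socs3 (0.90), Noct (0.88), Eif2s2 (0.88), Timp1 (0.87) and Gadd45g (0.87). Retnla encodes a secreted protein of alternatively activated macrophages and epithelium, Socs3 an inhibitor of cytokine receptor signaling, and Timp1 an inhibitor of metalloproteinases. Much of the likeness lay between the groups, since with group means subtracted r was 0.39, 0.47, 0.52, -0.05, 0.30 and 0.52 in the same order. By Spearman's rho 2 of the 6 stayed among the first 6, and the lowest placed was 148th. Most like Ccl22, among 7254 genes, were Osmr (r = 0.75), Acsm1 (0.73), Eef1e1 (0.73), Il4ra (0.70), Rhou (0.68) and Mt2 (0.68). Osmr encodes the receptor chain for oncostatin M and Il4ra the shared receptor chain for interleukin 4 and interleukin 13. With group means subtracted these 6 had r of 0.41, 0.58, 0.56, 0.53, 0.60 and 0.19. By Spearman's rho 3 of them stayed among the first 6, and the lowest placed was 39th. No gene was among the first 6 of both ligands.

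The genes around the ligands were followed because Ccl17 and Ccl22 share a stretch of chromosome 8. Among the 5 annotated genes on each side of every member, 12 genes that are no members were measured, and 1 of them passed the test in any of 12 comparisons. This was Pllp, which encodes a membrane protein of myelin and epithelia and fell by 0.70 on the log2 scale at 72 h of O3 in Tnfr-/- lungs (474 against 765, limma, adjusted p = 0.046). The Pllp call was lost when any 1 of its 6 arrays was left out, with adjusted p up to 0.17. Cx3cl1, which lies between the ligand genes, differed from air by between -0.37 and 0.08 on the log2 scale over the 6 O3 groups, and none of these differences passed. Ciapin1, the gene next to Ccl17, encodes a protein of iron-sulfur cluster assembly. It was above air by 1.47 at both 24 and 48 h in Tnfr+/+ lungs (limma, adjusted p = 0.47 and 0.15) and by 0.28 and 0.31 in Tnfr-/- lungs, none of which passed. The Ciapin1 air signals were 129 in Tnfr+/+ and 313 in Tnfr-/- lungs (limma, adjusted p = 0.45). Its signals at 24 and 48 h were 394 and 373 in Tnfr+/+ and 386 and 385 in Tnfr-/- lungs.

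**Figure D3:**
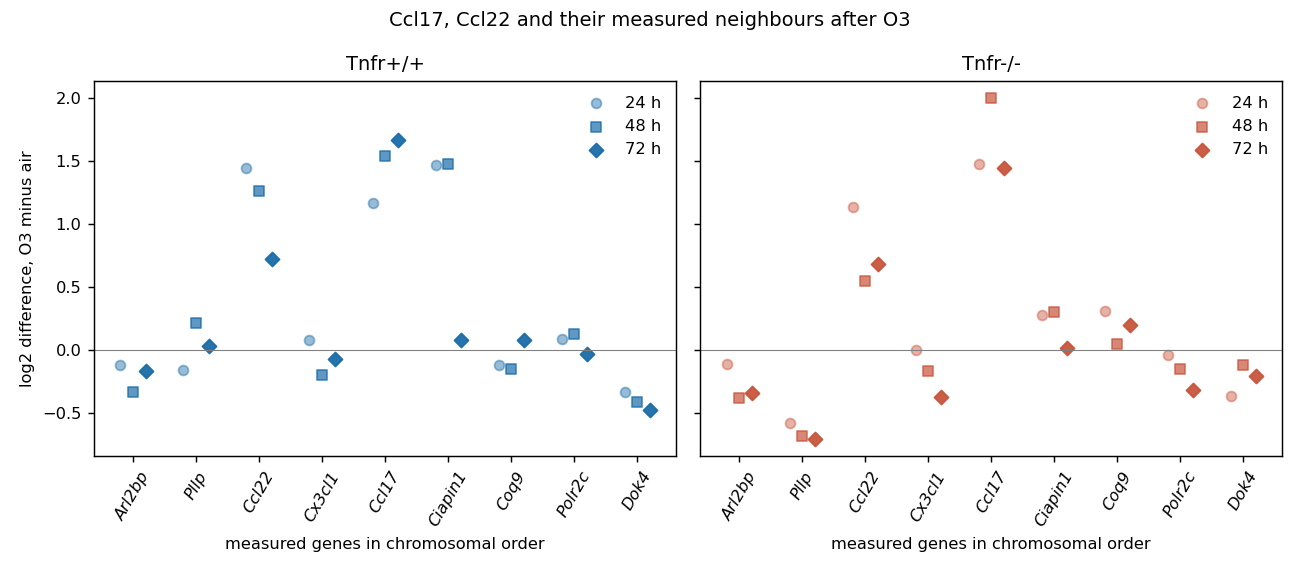
Log2 difference of O3 from air at 24, 48 and 72 h for the 9 measured genes around Ccl22 and Ccl17 in their order on chromosome 8, by genotype. The ligand genes are above 0 at every time, whereas Cx3cl1, which lies between them, stays between -0.37 and 0.08.

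Among type 2 cytokines and their receptors, Il33 and the receptor chains Il4ra and Csf2rb rose in Tnfr-/- lungs and Csf2ra in Tnfr+/+ lungs. The other measured genes passed no test against air. The list of type 2 cytokines, their receptors and STAT6 held 22 genes, of which 19 were measured. Several of these had low signals: Il5, Il25 and Csf2 lay under the 20th percentile of the array on 23, 23 and 21 of the 24 arrays. In Tnfr-/- lungs 2, 3 and 3 of them rose at 24, 48 and 72 h and none fell, where 1.10%, 3.83% and 3.96% of all probe sets were called. In Tnfr+/+ lungs 0, 0 and 1 rose, where 0.0828%, 1.17% and 3.10% were called. The median log2 difference of the list was 0.27, 0.31 and 0.23 in Tnfr-/- lungs, beside -0.02, -0.06 and -0.06 over all genes. In Tnfr+/+ lungs it was -0.11, 0.07 and 0.26, beside 0.00, -0.02 and -0.02 over all genes. Whether these counts differ between the genotypes was not tested, and no member of the list differed between the genotypes in air or at any time of O3 (limma, with 2, 2, 1 and 1 genes at an unadjusted p under 0.05). Of all 20537 probe sets, 678, 1452, 1179 and 1193 were higher and 743, 1433, 1033 and 1079 lower at such a p.

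Il33, which encodes an epithelial alarm cytokine that starts type 2 responses, went from 1362 in air to 2864 at 48 h and 2734 at 72 h in Tnfr-/- lungs. The log2 differences were 1.07 (SE 0.17, limma, adjusted p = 0.0012) and 1.01 (SE 0.17, adjusted p = 0.0017), and neither call was lost on leaving out an array. In Tnfr+/+ lungs the Il33 differences were 0.28, 0.55 and 0.56 and did not pass (adjusted p = 0.95, 0.15 and 0.085). Csf2rb, the shared beta chain of the receptors for GM-CSF and interleukins 3 and 5, rose in Tnfr-/- lungs by 1.48, 1.70 and 2.03 (limma, adjusted p = 0.016, 0.0024 and 0.00043). The 24 h call of Csf2rb was lost without any of 3 arrays (Tnfr-/- air replicate 2, 24 h replicates 1 and 2), with adjusted p up to 0.10.

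Il4ra, the receptor chain through which interleukin 4 and interleukin 13 reach STAT6, rose in Tnfr-/- lungs from 432 in air to 872, 802 and 762. The differences were 1.02, 0.91 and 0.84 (SE 0.19 each, limma, adjusted p = 0.010, 0.011 and 0.019). The Il4ra calls were lost without any of 3, 2 and 4 arrays, among them Tnfr-/- air replicate 1 each time, with adjusted p up to 0.074, 0.060 and 0.10. Csf2ra, the alpha chain of the GM-CSF receptor, rose at 72 h in Tnfr+/+ lungs by 1.00 (limma, adjusted p = 0.039), a call that 4 of its arrays ended, the 3 air arrays and 72 h replicate 1, with adjusted p up to 0.14. Stat6 itself differed from air by -0.15, -0.36 and -0.47 in Tnfr+/+ and by -0.24, -0.36 and -0.21 in Tnfr-/- lungs, and Il4 by -0.19, -0.46 and 0.19 and by 0.15, -0.42 and -0.55. None of these passed. Il13 had no probe set of its own in the fit.

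Other CC chemokine genes gave fewer calls than differences in their means. The list of other CC ligands held 18 genes with 15 measured. In Tnfr-/- lungs 1, 2 and 2 rose at 24, 48 and 72 h, and 1 fell at 72 h, where 1.10%, 3.83% and 3.96% of all probe sets were called. In Tnfr+/+ lungs 0, 0 and 2 rose, where 0.0828%, 1.17% and 3.10% were called. The list medians were 0.14, 0.53 and 0.29 in Tnfr+/+ and 0.41, 0.39 and 0.30 in Tnfr-/- lungs, above the medians of all genes given before. Ccl2, which draws monocytes, rose in Tnfr-/- lungs by 1.38, 1.07 and 0.97 (limma, adjusted p = 0.010, 0.025 and 0.044). The 24 h call of Ccl2 was lost without Tnfr-/- air replicate 1 or 24 h replicate 1 (adjusted p up to 0.057), and 4 arrays at 48 h and 5 at 72 h ended the later ones (up to 0.15 and 0.19). Ccl6, a ligand made by macrophages and neutrophils, rose in Tnfr-/- lungs by 1.04 at 48 h and 1.15 at 72 h (limma, adjusted p = 0.014 and 0.0066). The 72 h call of Ccl6 held without any 1 array, and that at 48 h was lost without Tnfr-/- air replicates 1 or 3 or 48 h replicate 2, with adjusted p up to 0.069.

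In Tnfr+/+ lungs at 72 h Ccl6 rose by 0.87 (adjusted p = 0.045) and Ccl7, another attractant of monocytes, also rose (68.4 against 19.6, limma, adjusted p = 0.031). The Ccl7 air arrays all lay under the 20th percentile (52.2), against which the 72 h signal was at least 1.28-fold higher, and with signals under 32 set to 32 the call was lost. Leaving out any of the 6 arrays ended the Ccl6 call (adjusted p up to 0.12), and leaving out any of 4 ended that of Ccl7 (up to 0.12). Ccl27a, an attractant of skin T cells, fell by 0.88 at 72 h in Tnfr-/- lungs (limma, adjusted p = 0.040, lost without any of 5 arrays, up to 0.17).

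Of 15 genes for other CC receptors, scavenger receptors of chemokines and Dpp4, a peptidase that trims chemokines, 14 were measured. Ccr1, a receptor of monocytes and neutrophils, was the only one called against air, where the shares of all probe sets called were those given above. It rose in Tnfr-/- lungs by 0.84, 1.32 and 1.55 (SE 0.18 each, limma, adjusted p = 0.027, 0.00030 and 4.9e-05) and at 72 h in Tnfr+/+ lungs by 0.80 (adjusted p = 0.021). The Ccr1 calls at 48 and 72 h in Tnfr-/- lungs held without any 1 array, and the other two were lost without any of 4 arrays, with adjusted p up to 0.12 and 0.075. Ackr4, a scavenger receptor, was higher in Tnfr-/- than in Tnfr+/+ lungs at 24 h (145 against 30.9, limma, adjusted p = 0.022, lost without any of 5 arrays, up to 0.10). All 3 Tnfr+/+ arrays lay under the 20th percentile of the array there, and set against that level (52.2) the Tnfr-/- signal was at least 2.75-fold higher. The list medians were -0.12, -0.14 and -0.35 in Tnfr+/+ and 0.16, -0.23 and -0.04 in Tnfr-/- lungs. Ccr8, the other chemokine receptor of T helper type 2 cells and regulatory T cells, had differences from air between -0.56 and -0.17 in the 6 O3 groups, and none passed.

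**Figure D4:**
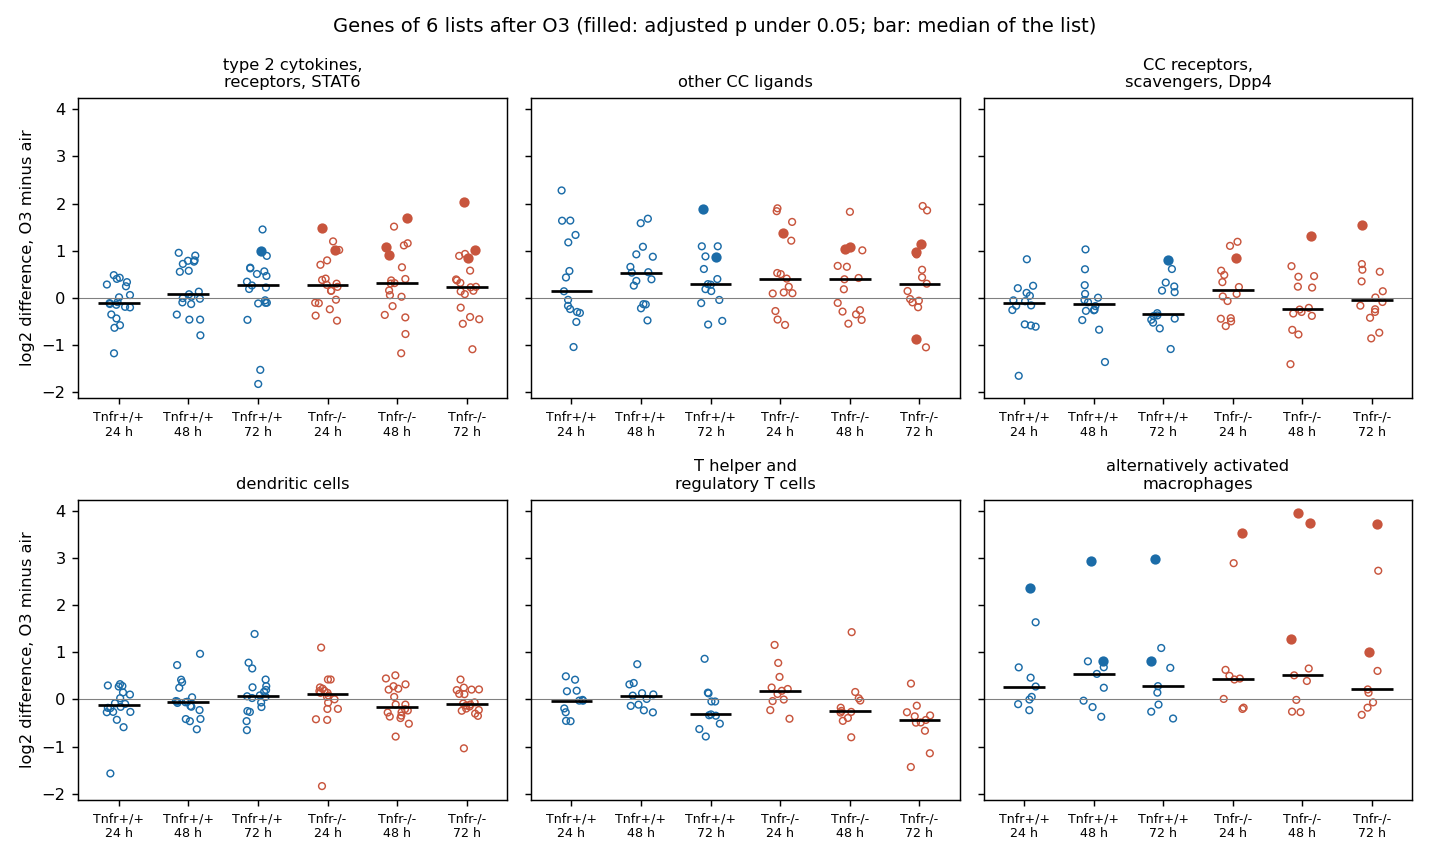
Log2 difference of O3 from air for each measured gene of 6 gene lists, in 6 panels, at 24, 48 and 72 h in both genotypes. Each point is a gene, filled points passed an adjusted p under 0.05, and the bar is the median of the list. The dendritic cell and T cell panels hold no filled point, and the highest filled point of the alternatively activated macrophage panel is Retnla.

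Markers of the cells that make and receive these chemokines were looked at beside the members. Of 19 dendritic cell markers 18 were measured, and none passed the test in any of 12 comparisons (limma, with between 0 and 4 genes at an unadjusted p under 0.05 in each comparison). Of all 20537 probe sets, between 577 and 1941 were higher and between 523 and 1905 lower at such a p. The lowest p values belonged to Flt3, a growth factor receptor of these cells, at 24 h in Tnfr-/- lungs (24.5 against 98.1, adjusted p = 0.059) and to Cd209a, a lectin, at 48 h in Tnfr+/+ lungs (-0.63, adjusted p = 0.088). Flt3 lay under the 20th percentile of the array on 18 of the 24 arrays. The summed signal of the list ran from 4477 to 4802 in Tnfr-/- air, from 4722 to 4917 at 24 h, from 4066 to 4663 at 48 h and from 4246 to 4687 at 72 h. In Tnfr+/+ lungs it ran from 4731 to 5008 in air, from 4087 to 5029 at 24 h, from 4744 to 4905 at 48 h and from 5222 to 5605 at 72 h. No list gene in any of the 12 lists was at the floor of 1 on any array, which does not show that the genes were detected. Of the Tnfr-/- groups, that at 48 h, with the highest Ccl17 mean, had the lowest median of this sum. Of the Tnfr+/+ groups, that at 72 h, with the highest Ccl17 mean, had the highest sums, all above those in air. The part of these cells in the Ccl17 values was not tested.

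Of 13 markers of T helper and regulatory T cells, which carry Ccr4, 11 were measured and none passed the test against air in either genotype (limma). At 72 h in Tnfr-/- lungs 4 of the 11 were lower at an unadjusted p under 0.05 and none was higher, with a list median of -0.43 beside -0.06 over all genes. Of all 20537 probe sets, 1749 were lower and 1744 higher at such a p there. In the other comparisons with air 0 or 1 gene of the list had such a p. Cd3d, a chain of the T cell receptor complex, was lower in Tnfr-/- than in Tnfr+/+ lungs at 72 h (23.02 against 123, limma, adjusted p = 0.028). All 3 Tnfr-/- arrays lay under the 20th percentile, and set against that level the Tnfr+/+ signal was at least 2.25-fold higher. The call was lost with signals under 32 set to 32 and without Tnfr+/+ 72 h replicate 1 or Tnfr-/- 72 h replicates 1 or 2, with adjusted p up to 0.13. Foxp3, the factor that defines regulatory T cells, differed from air by 0.42, 0.32 and -0.78 in Tnfr+/+ and by 0.18, -0.39 and -0.34 in Tnfr-/- lungs and did not pass. The summed signal of the list ran from 1468 to 1645 in Tnfr-/- air, from 1714 to 1845 at 24 h, from 1432 to 1558 at 48 h and from 1185 to 1371 at 72 h, and from 1608 to 2263 over the Tnfr+/+ arrays. All 72 h sums in Tnfr-/- lungs lay below all air sums, beside a Ccr4 difference of 0.13 between the same groups, and the part of these cells in the Ccr4 values was not tested.

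Of 10 markers of alternatively activated macrophages, a state induced by interleukin 4 and interleukin 13, 9 were measured. Retnla and Chil3 rose in both genotypes, and most of the list did not pass: 1, 2 and 2 of the 9 rose in Tnfr+/+ and 1, 3 and 2 in Tnfr-/- lungs at 24, 48 and 72 h, and none fell. Of all probe sets, 0.0828%, 1.17% and 3.10% were called in Tnfr+/+ and 1.10%, 3.83% and 3.96% in Tnfr-/- lungs. Retnla rose in all 6 comparisons, by 2.37, 2.95 and 2.98 in Tnfr+/+ and by 3.54, 3.95 and 3.72 in Tnfr-/- lungs (limma, adjusted p of 5.1e-06 or less), and none of these calls was lost on leaving out an array. Chil3, a chitinase-like protein of macrophages, rose at 48 and 72 h by 1.28 and 1.00 in Tnfr-/- (limma, adjusted p = 0.00048 and 0.0035, held without any 1 array) and by 0.82 and 0.81 in Tnfr+/+ lungs (adjusted p = 0.032 and 0.022). The Chil3 calls in Tnfr+/+ lungs were lost without any of 4 arrays at 48 h and any of 2 at 72 h, with adjusted p up to 0.18 and 0.10. Arg1, an arginine-degrading enzyme, rose at 48 h in Tnfr-/- lungs (143 against 14.4, limma, adjusted p = 0.030, lost without any of 5 arrays, up to 0.13). All 3 of its air arrays lay under the 20th percentile, and set against that level (52.2) the 48 h signal was at least 2.69-fold higher.

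The summed signal of that list ran from 14751 to 15190 in Tnfr-/- air, from 34811 to 36666 at 24 h, from 42632 to 51033 at 48 h and from 39290 to 41548 at 72 h. In Tnfr+/+ lungs it ran from 15111 to 17463 in air, from 24245 to 34463 at 24 h, from 33020 to 43170 at 48 h and from 35368 to 42432 at 72 h. Retnla and Chil3 alone made between 44.7% and 81.7% of this sum, so that it follows those genes more than the list. The part of these cells in the Ccl17 and Ccl22 values was not tested.

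Among 12 alveolar macrophage markers, 9 of them measured, Marco, a scavenger receptor, rose in Tnfr+/+ lungs at 48 h by 2.03 (limma, adjusted p = 0.00092) and Abcg1, a lipid exporter, fell by 0.91 in Tnfr-/- lungs at 48 h (adjusted p = 0.0010). Both calls held without any 1 array. Plet1, a surface protein, rose at 48 and 72 h by 0.64 and 0.58 in Tnfr+/+ and by 0.43 and 0.57 in Tnfr-/- lungs, and of these calls (limma, adjusted p up to 0.021) that at 48 h in Tnfr-/- lungs was lost without any of 4 arrays (up to 0.11). Marco at 72 h in Tnfr+/+ lungs and Abcg1 at 72 h in Tnfr+/+ and at 24 and 72 h in Tnfr-/- lungs were called in the same directions and were lost without some of the arrays. None of the 11 markers of eosinophils, basophils and mast cells passed any test. Of these, Prg2, Mcpt8 and Fcer1a lay under the 20th percentile on 23, 21 and 19 of the 24 arrays. The lists for B cells and lymph node, thymus and liver stand for tissue that could be carried along with the lung. Of the list of B cell and lymph node markers, 5 of 8 measured genes were higher in Tnfr-/- than in Tnfr+/+ lungs at 24 h, where 1.00% of all probe sets were called, among them Cd79a, a chain of the B cell receptor, by 1.55 (limma, adjusted p = 0.018, lost without any of 3 arrays, up to 0.097). The others were Ms4a1, Cd79b, Cd22 and Fcer2a, higher by 1.30, 1.33, 0.99 and 1.35, and each was lost without 4 or 5 of the arrays, with adjusted p up to 0.22. Cd79a and Cd22 were lower at 48 than at 24 h in Tnfr-/- lungs, by differences of -1.49 and -0.96, which any of their 6 arrays ended (up to 0.19). The summed signal of that list ran from 5041 to 6283 in Tnfr-/- and from 2260 to 2726 in Tnfr+/+ lungs at 24 h, beside a Ccl17 difference of -0.18 and a Ccl22 difference of -0.10 between the same groups. In the liver list Alb, the gene of albumin, fell by 1.95 in Tnfr+/+ lungs at 72 h (limma, adjusted p = 0.0018, held without any 1 array). Alb at 48 h, Ttr at 48 h and Apoa2 at 72 h, which encode plasma proteins of the liver, were called lower there too, and each was lost without 4 or more of its arrays (adjusted p up to 0.19). Ttr lay under the 20th percentile on all 3 of the 48 h arrays and Apoa2 on 2 of the 72 h arrays. Between the genotypes in air no liver gene passed (limma), but 6 of 13 were lower in Tnfr-/- lungs at an unadjusted p under 0.05, as were 743 of all 20537 probe sets. The median of the liver list was -0.87, with sums from 1281 to 1711 against 2383 to 3590. These values stand beside the Ccl17 difference of -0.48 between the same groups, and the part of liver RNA in it was not tested. The thymus list had no call, and in it Rag1 lay under the 20th percentile on 23 arrays and Aire on 19.

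The arrays had total signals from 14877000 to 16057700, and the 7 lung epithelial markers were present on all of them with no call. Tnfr+/+ 72 h replicate 1 correlated less with the other arrays (mean r 0.927, others from 0.943 to 0.954) and had a Gapdh 3′ to 5′ signal ratio of 4.45 (others from 0.890 to 1.74), a sign of RNA quality. Without it the 72 h difference of Tnfr+/+ lungs from air was 1.61 for Ccl17. Tnfr+/+ 48 h replicate 2 had the highest sums of alveolar macrophage (21034, others up to 9600), thymus (1757, others up to 962) and liver markers (4439, others up to 3590), and also of T cell markers and other CC ligands (2263 and 8177). Single genes made much of the macrophage and liver sums on that array, where Fabp4 alone gave 12163 and Cyp2e1 alone 3226. The mean log2 signal of the liver list there was 6.49, below the Tnfr+/+ air arrays (6.73 to 7.77). That of the alveolar macrophage list was 9.91 (others up to 8.85). Without Tnfr+/+ 48 h replicate 2 the 48 h differences were 1.54 for Ccl17 and 1.12 for Ccl22. Of the deleted genes, Tnfrsf1b had 1 probe set without overlap (356 to 525 in Tnfr+/+, 151 to 266 in Tnfr-/-) and 1 with overlap, and Tnfrsf1a overlapped (2030 to 3623 against 1399 to 2341). Neither the labels nor the annotation say whether these probe sets match the deleted exons, so the labels cannot be settled with them.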

How the data were processed

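The 24 Affymetrix MOE430A arrays each held the lung RNA of a single mouse. The values that the authors deposited are linear intensities of 22644 probe sets, made with MAS5 in Affymetrix Expression Console per the submitters' processing notes, with versions not given in the sources used here. The percentile filter, the quantile normalization and the division by the wild-type air mean that the methods name were not in the deposited intensities. Every sample column was used. Groups were taken from the sample labels, and each array of a group came from another animal. The precision is limited by 3 arrays per group.

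The intensities were quantile normalized, raised to a floor of 1, and log2 transformed. Control probe sets (64) were left out, and 20537 probe sets that reached the 20th percentile on 1 array or more were kept. All 24 arrays entered 1 linear model of the 8 group means in limma 3.58.1 (lmFit, eBayes) in R 4.3.3, with 16 residual and 2.38 prior degrees of freedom. P values were adjusted by the Benjamini-Hochberg method over all probe sets kept, and an adjusted p under 0.05 was called. The script was tested on simulated data. Figures were drawn with matplotlib 3.10.9.

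Of the probe sets, 20351 were annotated to 1 gene, 691 to several and 1538 to none, and 20322 matched a current gene. Ccr4 was matched by its Entrez number, since Noct, a different gene, carries Ccr4 as an old synonym. For a gene other than a member, the probe set of highest mean log2 signal was used. Named in the text were the members, the called genes of each list (at most 4 per comparison, or at most 2 with the smallest p where none was called) with some genes of known role such as Stat6, Il4, Ccr8 and Foxp3 added after their values were seen, the measured neighbours, and the 6 genes most like each ligand. As an exception, all 5 called genes of the B cell and lymph node list were named for the genotypes at 24 h. The members and the lists were chosen with earlier results of these data known. Motif shares and promoter windows came from RefSeq on GRCm38.p6. The alternatives were other normalizations, filters and floors, array weights, a fit to the arrays compared, an ordinary t-test, a replicate block, and leaving out each array in turn. The ordinary t-test used the pooled variance of the arrays compared, whereas the legends of the study name a moderated t-test.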

Additional observations from a re-analysis of the deposited data

Results flagged for a closer look

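The difference of O3 from air at 72 h for Ccr4 had opposite signs in the genotypes. It was -0.23 on the log2 scale in Tnfr+/+ lungs, where every 72 h array was below the mean of the air arrays, and 0.13 in Tnfr-/- lungs, where every 72 h array was above that mean. The effects lay 0.35 apart, and the difference was not tested. Without Tnfr-/- air replicate 3 the Tnfr-/- difference was -0.020, so that the opposite signs rest on that array.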

How the results depend on the processing

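The 3 Ccl17 calls in Tnfr-/- lungs kept their direction under every alternative tried. The difference at 24 h was 1.47 with an adjusted p of 0.094 in a limma fit to the arrays of the comparison alone and 0.17 by the ordinary t-test. At 72 h it was 1.44 with an adjusted p of 0.060 by the ordinary t-test. Under the other settings and without any 1 array the calls held. The titles share replicate numbers, but same-numbered arrays did not deviate together (correlations from -0.078 to 0.11 over 12 comparisons), and with a replicate block the Ccl17 adjusted p values were 0.0011, 2.7e-05 and 0.00039. The block changed no call of the members. Leaving out 1 array turned the sign of 3 tested differences that had not passed: Ccr4 in Tnfr-/- lungs at 48 h ranged from -0.49 to 0.095 and at 72 h from -0.020 to 0.20, and Ccl22 from 48 to 72 h ranged from -0.041 to 0.22. It also turned the sign of 8 differences given without a test: Ccr4 in Tnfr+/+ lungs at 24 h (-0.18 to 0.25), and between the genotypes Ccl17 at 24 h (-0.32 to 0.028) and 48 h (-0.12 to 0.090), Ccl22 in air (-0.0049 to 0.47), at 24 h (-0.36 to 0.31) and at 72 h (-0.10 to 0.69), and Ccr4 at 24 h (-0.37 to 0.061) and 72 h (-0.13 to 0.030). The cause was not tested, other than that fewer arrays entered these fits.

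Of 56 calls of other named genes, 21 held without any 1 array and 17 under every setting, while 39 were lost in a fit to the arrays of the comparison alone, which has fewer arrays. Over the settings the number of list genes called in Tnfr-/- lungs against air at 24, 48 and 72 h ran from 0 to 11 (6 as reported), from 3 to 18 (11) and from 3 to 16 (11), and in Tnfr+/+ lungs from 0 to 2 (1), from 0 to 13 (6) and from 1 to 13 (11). From 24 to 48 h in Tnfr-/- lungs it ran from 0 to 4 (2), and between the genotypes from 0 to 3 in air (0), from 0 to 6 at 24 h (6), and from 0 to 1 at 48 h (0) and 72 h (1). Of all probe sets, those called in Tnfr-/- lungs against air ran from 0 to 660 (226), from 303 to 2448 (787) and from 76 to 1697 (814), and in Tnfr+/+ lungs from 0 to 34 (17), from 0 to 449 (241) and from 2 to 874 (636). The steps within Tnfr-/- lungs ran from 0 to 212 (78) and from 0 to 6 (1), and the genotype comparisons in air and at 24, 48 and 72 h from 2 to 99 (18), from 8 to 428 (206), from 0 to 106 (34) and from 0 to 37 (33). By the methods' t-test at their threshold without adjustment, 490 probe sets were higher and 409 lower at 24 h in Tnfr-/- lungs, 1046 and 778 at 48 h and 715 and 566 at 72 h, and 0, 303 and 76 passed after Benjamini-Hochberg. Ccr4 had no value under the filter at the median of the array, since it does not pass that filter.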
